A study of Mus musculus with 41 samples.

Results

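The 8 genes described here, Tmem154, S1pr1, Serpinb1c, Trim63, Lrguk, Chst2, B3gnt8 and Il12rb2, are genes whose RNA was already higher in cerebellar microglia of NPC mice than of wild-type (WT) mice at 1 week of age. They were selected on that measured 1-week difference, by symbol, from the 24015 genes of the deposited table, and all 8 were found there. Niemann-Pick disease type C is a lysosomal lipid storage disease, and the NPC mice carry the strain label BALB/cNctr-Npc1m1N/J, a mutant allele of Npc1, which encodes a cholesterol exporter of late endosomes and lysosomes. The WT mice carry the strain label balb/c, so that genotype and strain label cannot be told apart. Microglia were sorted from the cerebellum as CD11b+Tmem119+ cells, and polyA RNA was amplified and sequenced from 41 libraries in 10 groups. Untreated WT and NPC mice were taken at 1, 3, 6 and 9 weeks, with 4 libraries in each group except NPC at 9 weeks, which had 3. At 9 weeks there were also 5 libraries from PLX5622-treated NPC mice and 5 from their NPC controls; PLX5622 blocks Csf1r, the receptor on which microglia depend for survival. No WT mice of the treatment arm are among the samples, and the dose and duration of PLX5622 are not given in the sources used here.

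The members belong to several unrelated families. S1pr1 is a G protein-coupled receptor for the lipid sphingosine-1-phosphate (S1P), best known for its part in lymphocyte exit from lymphoid tissue, and Il12rb2 is the signalling chain of the interleukin-12 receptor, which acts through Stat4. Chst2 is a Golgi sulfotransferase that puts sulfate on N-acetylglucosamine of glycan chains, and B3gnt8 is a Golgi N-acetylglucosaminyltransferase that extends lactosamine chains on N-glycans. Serpinb1c is a mouse paralog of the intracellular inhibitors of neutrophil serine proteases, Trim63 (MuRF1) is a ubiquitin ligase known from wasting muscle, Lrguk carries leucine-rich repeats and a guanylate kinase domain and is known for its role in sperm formation, and Tmem154 is a transmembrane protein whose function is poorly known.

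Promoter sequences of RefSeq (GRCm38.p6), from 250 bases before to 50 bases after the annotated start, were found for 7 of the 8 members, S1pr1 being the one not matched; Serpinb1c has 2 entries, of which the first in the table was used. The letters of 5 known motifs were searched on both strands. GAGGAAG, the core bound by PU.1, the lineage factor of macrophages, stood in the Serpinb1c promoter at chr13:32940551-32940850 (minus strand) at position -97 from the start, and in 13.6% of the 32851 promoters of the table. GTAAACA, the forkhead motif, stood in the Trim63 promoter at chr4:134314870-134315169 (plus strand) at position -194 and on the opposite strand, and in 3.65% of promoters. None of the 7 windows held CACGTG, the E-box (7.15% of promoters), TGACTCA, the AP-1 motif (5.20%), or the interferon response motif (3.44%). The GC content of the members' windows ran from 47% for Serpinb1c to 73% for Chst2, whose promoter lies at chr9:95407221-95407520 (minus strand), against a median of 52.7% over all promoters. The promoters below are those of the 2 members with a motif, with the motif in capitals, and of Chst2, the member whose NPC level differed between 3 and 9 weeks.
Serpinb1c: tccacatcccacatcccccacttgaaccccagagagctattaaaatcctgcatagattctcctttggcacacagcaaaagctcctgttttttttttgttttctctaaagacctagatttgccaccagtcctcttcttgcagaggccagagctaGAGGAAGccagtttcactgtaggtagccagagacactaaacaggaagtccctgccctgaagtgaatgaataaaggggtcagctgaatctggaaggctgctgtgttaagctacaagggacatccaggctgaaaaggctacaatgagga
Trim63: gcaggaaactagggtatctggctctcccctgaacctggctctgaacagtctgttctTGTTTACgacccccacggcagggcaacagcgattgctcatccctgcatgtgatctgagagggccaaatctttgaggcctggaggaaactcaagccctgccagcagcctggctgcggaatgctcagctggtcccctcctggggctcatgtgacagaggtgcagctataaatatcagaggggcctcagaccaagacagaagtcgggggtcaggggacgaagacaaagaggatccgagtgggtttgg
Chst2: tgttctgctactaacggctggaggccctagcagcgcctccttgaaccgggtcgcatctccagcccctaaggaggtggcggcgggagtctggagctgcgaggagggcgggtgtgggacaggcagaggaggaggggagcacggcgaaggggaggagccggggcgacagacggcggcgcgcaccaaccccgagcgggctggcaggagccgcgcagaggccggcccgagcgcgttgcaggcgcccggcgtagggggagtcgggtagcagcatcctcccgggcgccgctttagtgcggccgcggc

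The files hold counts divided by size factors, called normalized counts here, from which whole reads were recovered: 23159093 to 40509603 per library. Npc1 itself averaged 3293 to 6656 normalized counts in the 4 WT groups and 454 to 629 in the 6 NPC groups, with no overlap of libraries. The sort markers were plentiful in every group: the lowest group mean was 26436 normalized counts for Itgam (the gene of CD11b) and 74750 for Tmem119. Of 12 microglial markers, 0 passed the test at 1 week, whereas 5, 5 and 6 were lower in NPC at 3, 6 and 9 weeks and 3, 1 and 0 were higher. In bulk libraries such as these, fewer cells of a type and less RNA per cell cannot be told apart. Markers of other cells were called in both directions. Of 12 astrocyte markers 2 were higher in NPC at each of 3, 6 and 9 weeks, where 14.3%, 8.76% and 11.2% of all genes tested were called higher, and 1, 0 and 0 were lower. Of 9 border macrophage markers tested, 3, 2 and 3 were higher and 0, 2 and 0 lower. Of 12 endothelial and pericyte markers 0, 0 and 2 were higher and 1 at each age was lower, and of 13 monocyte and neutrophil markers 2, 1 and 1 were higher and 1 at each age was lower. Of 11 neuron markers 1, 1 and 0 and of 12 oligodendrocyte markers 0, 0 and 1 were higher, with 0 lower in either list. Their part in the results was not tested. At 6 weeks NPC replicates B and C were the highest of their group in summed astrocyte markers (15866 and 15536 normalized counts, against 11929 in A and 10188 in D) and in summed oligodendrocyte markers (19868 and 17192, against 9292 and 6883). They were also its 2 highest libraries for S1pr1, Il12rb2, B3gnt8, Tmem154 and Serpinb1c. Without both, the 6-week log2 difference from WT was 2.49 for S1pr1, 1.95 for Il12rb2, 2.32 for B3gnt8 and 2.58 for Tmem154, in place of 2.81, 2.31, 2.75 and 2.83. For Serpinb1c it was 5.80 in place of 5.94. Each of these genes was still called. The NPC 3-week replicate C had the lowest correlation with the mean of its group mates (r = 0.929). It was taken over genes with 10 or more normalized counts in 3 or more libraries.

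**Figure D1:**
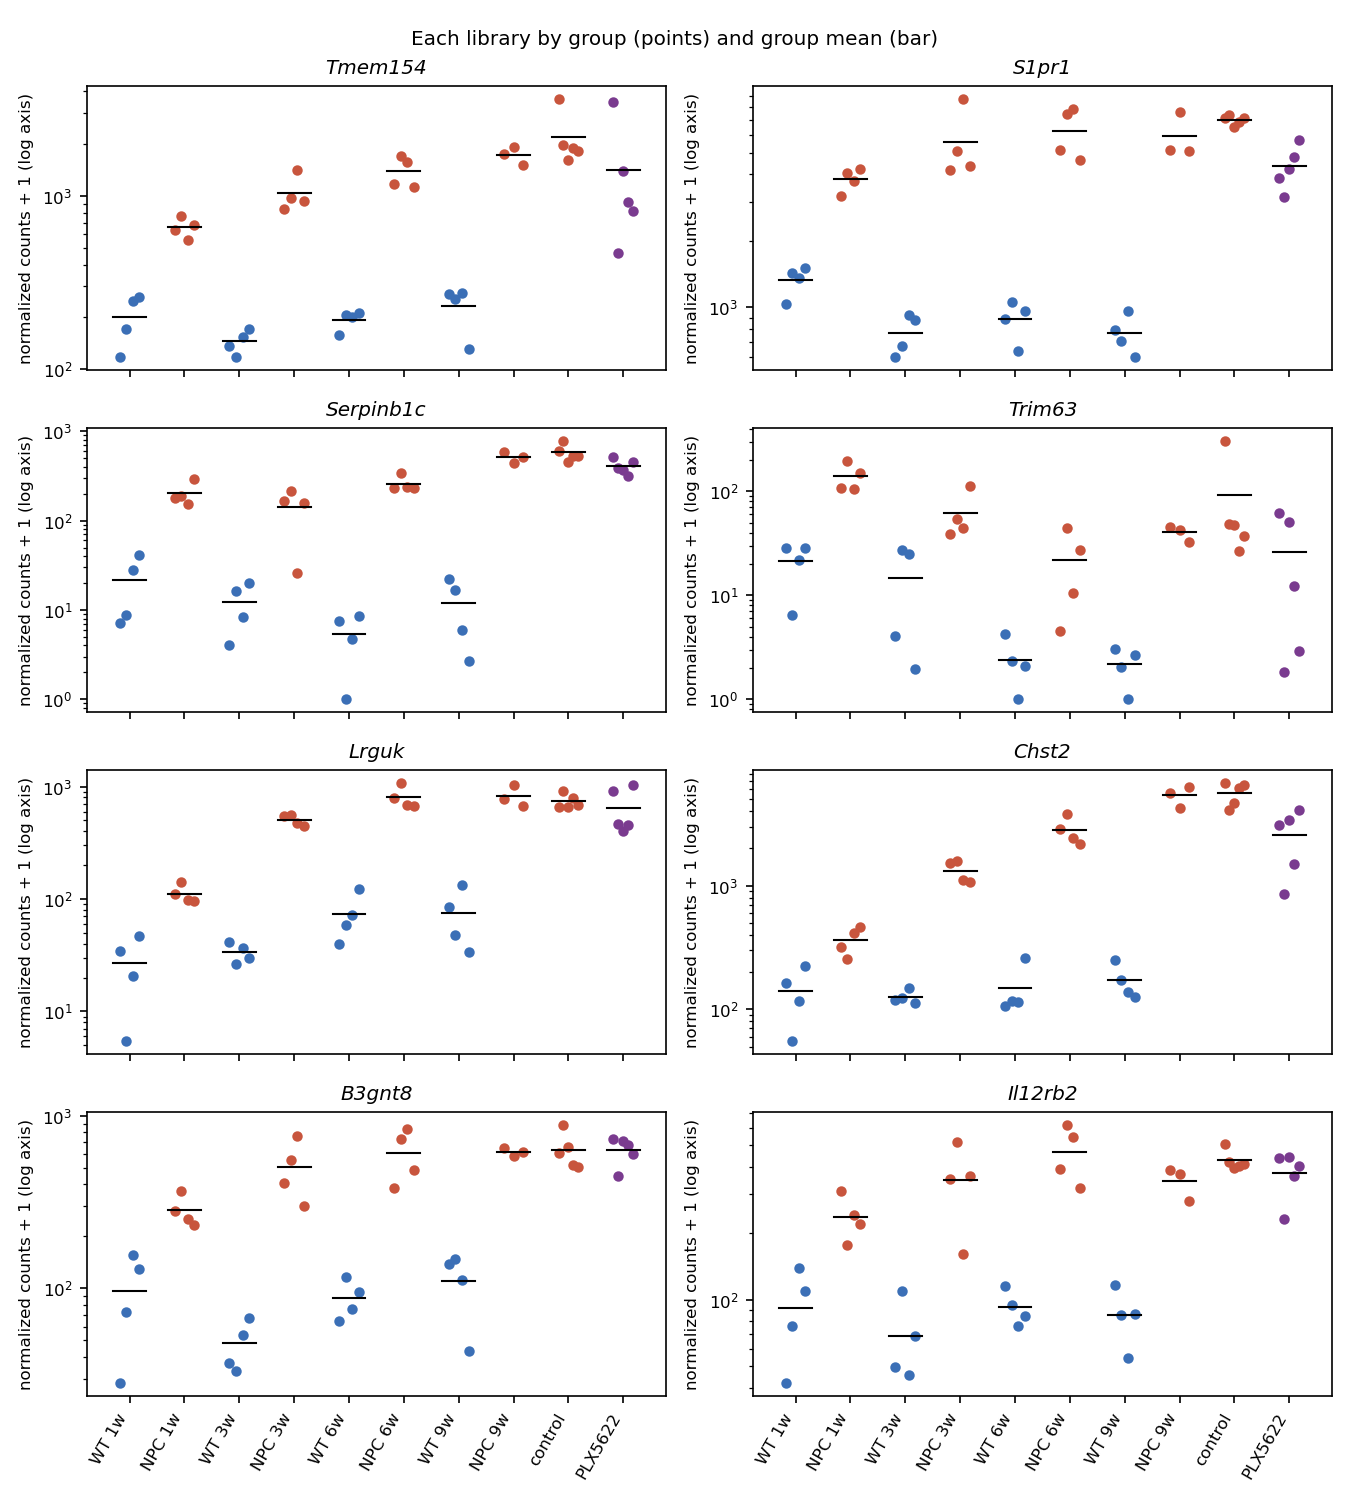
Normalized counts + 1 (log axis) of the 8 genes in each of the 41 libraries (points; blue WT, red NPC and NPC control, purple PLX5622), with the group mean (bar). At each of the 4 ages every NPC library lies above every WT library for all 8 genes, for Trim63 at 6 weeks only by 3.50 against 3.25 normalized counts.

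All 8 genes were separate between the genotypes at 1 week, the age that chose them, where 0.876% of the 14046 genes tested were called higher in NPC (limma, adjusted p under 0.05). Their 1-week values are given as a description, with no test, and the 1-week intervals do not allow for the choice. All 8 were also called higher in NPC at 3, at 6 and at 9 weeks. At these ages 14.3%, 8.76% and 11.2% of all genes tested were called higher. The members were chosen for 1 week but with earlier results of these data known, so the later ages may have had a part in the choice. The fit also shares its spread with the 1-week libraries. Limited to the groups compared, it called 7 at 3 weeks, or 6 with a replicate block. Such fits called 7 at 6 weeks and 8 at 9 weeks, with or without the block. The groups did not overlap for any of the 8 at any age, but the share of all genes without overlap was not computed. For Trim63 at 6 weeks the nearest libraries held 3.50 normalized counts in NPC and 3.25 in WT, with 3 reads in each. The median difference over the 8 was 1.79 on the log2 scale at 1 week, 3.10 at 3 weeks, 2.85 at 6 weeks and 3.29 at 9 weeks, and the median over all genes tested lay between -0.04 and 0.03. Fold differences below are limma estimates on log2(normalized count + 1) with 95% intervals.

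**Figure D2:**
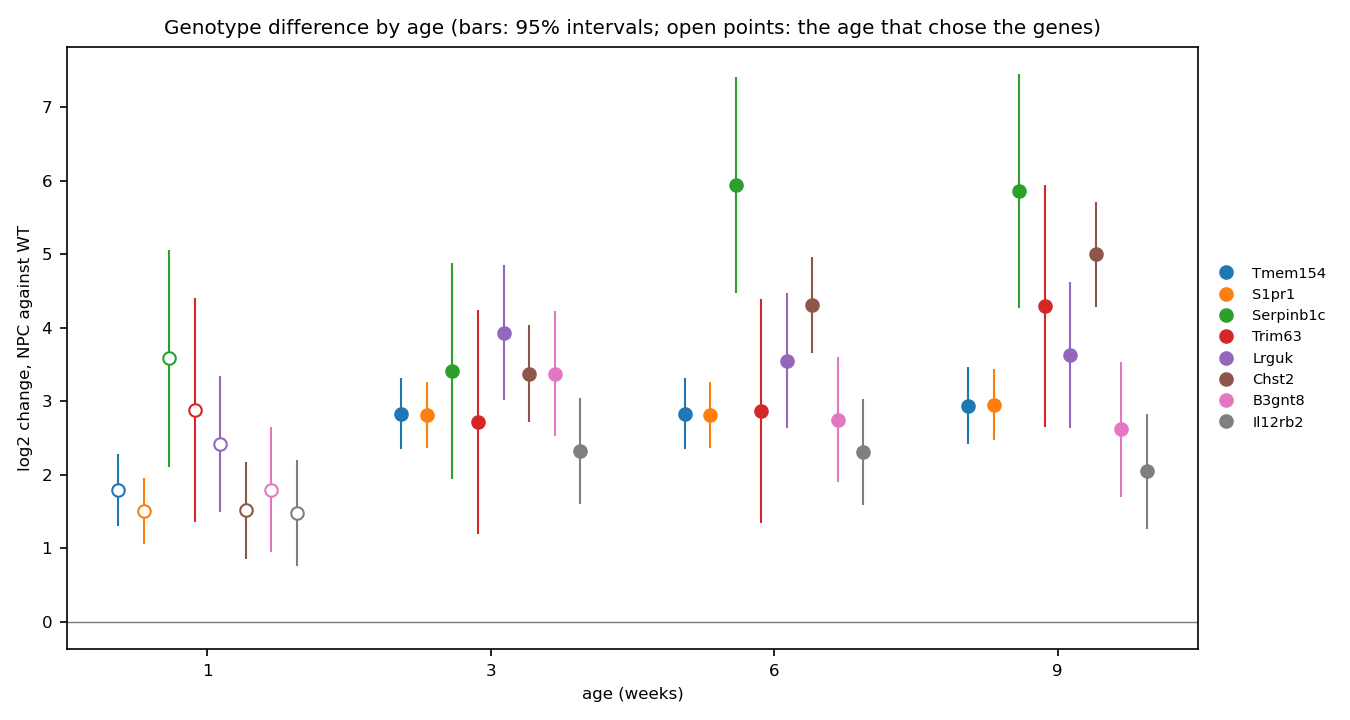
Log2 change in NPC against WT (y axis) by age in weeks (x axis) for each of the 8 genes, with 95% intervals; open points are the 1-week values that chose the genes. At 3, 6 and 9 weeks the intervals lie above 0, and Serpinb1c has the highest point at 6 and 9 weeks.

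S1pr1, the S1P receptor, was higher in NPC at each age, and its difference from WT was wider at the 3 later ages. At 1 week the WT libraries held 1035, 1433, 1360.3 and 1510.5 normalized counts and the NPC libraries 3196, 4042, 3704 and 4199, a 2.85-fold (2.09 to 3.89) difference. At 3 weeks WT held 594, 668, 925 and 879 and NPC 4182, 5095, 8731 and 4325, and S1pr1 was 7.06-fold (5.17 to 9.64, adjusted p = 6.17e-10) higher. The WT level at 3 weeks (766 ± 160.2, SD, n = 4) was below that at 1 week (1335 ± 209), while the NPC level was above its 1-week value. At 6 weeks WT held 882, 1055, 635 and 964 and NPC 5123, 7484, 7885 and 4633, a 7.03-fold (5.15 to 9.61, adjusted p = 2.69e-10) difference. At 9 weeks the WT values were 792, 702, 957 and 597 and the NPC values 5117, 7589 and 5081, a 7.74-fold (5.53 to 10.8, adjusted p = 3.11e-10) difference. In the order of group means, the control and the 6-, 9- and 3-week NPC groups came first and each overlapped the next, and the lowest NPC group, at 1 week, was separate from the highest WT group.

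Il12rb2, the other receptor, had the smallest fitted fold difference of the 8 at each age, 3, 6 and 9 weeks included. At 1 week the WT libraries held 40.8, 75.1, 138 and 108 normalized counts and the NPC libraries 308, 176, 241 and 218, 2.78-fold (1.68 to 4.59) higher. The 3-week values were 48.6, 108, 44.7 and 67.1 in WT and 349, 514, 159.9 and 361 in NPC, a 5.00-fold (3.03 to 8.25, adjusted p = 2.28e-05) difference, with NPC replicate C the lowest of its group. The 6-week libraries held 114, 94.0, 74.8 and 83.0 in WT and 389.9, 616, 543 and 318 in NPC, a 4.96-fold (3.00 to 8.19, adjusted p = 2.03e-05) difference. At 9 weeks WT held 116, 83.8, 53.6 and 85.3 and NPC 384, 371 and 278, a 4.14-fold (2.41 to 7.11, adjusted p = 0.000235) difference. Il12rb1, the partner chain of the receptor, averaged 4.75 to 11.2 normalized counts in the WT groups and 10.1 to 44.9 in the NPC groups. Lymphocyte markers, which include those of cells known for Il12rb2, summed to between 11.7 and 278 normalized counts per library over the 13 of 15 listed genes in the table. Ncr1, a marker of natural killer cells, was at 0 in every library of the 10 groups. Other listed markers were not: Nkg7 had reads in every group, Gzma in every group except the NPC controls, and Klrb1c in the WT groups only.

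Chst2, the sulfotransferase, showed an NPC level that was higher at each later age, while its WT level stayed within 54.1 to 260 normalized counts. At 1 week WT held 163, 54.1, 115 and 222 and NPC 321, 255, 409.8 and 464, a 2.86-fold (1.81 to 4.51) difference. At 3 weeks WT held 118, 123, 148 and 111 and NPC 1528, 1585, 1106 and 1069, a 10.4-fold (6.59 to 16.4, adjusted p = 1.39e-08) difference. The NPC group means were 362 ± 92.8, 1322 ± 272, 2813 ± 735 and 5380.1 ± 1076 at 1, 3, 6 and 9 weeks (SD, n = 4, 4, 4 and 3), and no 2 of these groups overlapped. At 6 weeks WT held 106, 115, 113 and 259.8 and NPC 2864, 3824, 2409 and 2155, a 19.8-fold (12.6 to 31.3, adjusted p = 1.16e-10) difference. In the 9-week libraries WT held 252, 172, 136 and 125 and NPC 5636, 4199 and 6306, a 32.0-fold (19.6 to 52.3, adjusted p = 2.17e-11) difference.

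B3gnt8, the glycosyltransferase, was higher in NPC at each age. At 1 week WT held 27.2, 71.8, 156 and 128 normalized counts and NPC 281, 366, 252 and 231, a 3.48-fold (1.93 to 6.27) difference. The 3-week values were 36.2, 32.4, 53.0 and 66.2 in WT and 407, 554, 766 and 299.6 in NPC, a 10.4-fold (5.75 to 18.7, adjusted p = 1.03e-06) difference. The NPC libraries at 3 weeks were widely spread but all stood above WT. The 6-week libraries held 63.9, 115, 74.8 and 93.8 in WT and 378, 729, 831 and 483 in NPC, a 6.74-fold (3.74 to 12.1, adjusted p = 1.66e-05) difference. At 9 weeks WT held 137, 148, 110.1 and 42.7 and NPC 646, 586 and 611, a 6.15-fold (3.26 to 11.6, adjusted p = 7.89e-05) difference.

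Serpinb1c, the protease inhibitor paralog, was low in WT and higher in every NPC library of the same age. At 1 week WT held 6.18, 7.73, 27.0 and 40.5 and NPC 178, 188, 152 and 294, a 12.0-fold (4.32 to 33.4) difference. At 3 weeks WT held 3.10, 15.3, 7.28 and 19.2 and NPC 163, 215, 24.7 and 158, a 10.7-fold (3.84 to 29.6, adjusted p = 0.00111) difference. NPC replicate C, at 24.7, was far below its group mates but still above the highest WT library, and without it the log2 difference was 4.11 in place of 3.41. At 6 weeks WT held 6.49, 0, 3.70 and 7.54 and NPC 230.0, 339, 236 and 231, a 61.6-fold (22.2 to 171, adjusted p = 6.71e-07) difference. In the 9-week libraries WT held 21.5, 15.7, 4.96 and 1.67 and NPC 578, 439 and 519.6, a 58.0-fold (19.2 to 175, adjusted p = 2.02e-06) difference. The fitted log2 rise of Serpinb1c was the largest of all genes tested at both 6 and 9 weeks, but its size depends on low WT values: with a pseudocount of 5 the log2 difference was 4.87 at 6 weeks and 5.22 at 9 weeks, against 5.94 and 5.86, and at 6 weeks it was 5.26 without WT replicate B, the library at 0.

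Serpinb1c has close paralogs, and how the authors' counting treated reads shared with them is not given in the sources used here. In GENCODE M21 transcripts it was 89.6% identical to Serpinb1a over 1371 aligned bases, with 71 bases as the longest identical run, and 84.7% identical to Serpinb1b over 1599 bases, with a run of 83. Serpinb1a averaged 0.658 to 11.1 normalized counts in the WT groups and 1.48 to 22.2 in the NPC groups other than PLX5622. Under PLX5622 Serpinb1a ran from 13.4 to 1571 while Serpinb1c ran from 314 to 511. Serpinb1b averaged 1.66 to 7.91 in the WT groups and 2.08 to 42.3 in the NPC groups.

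**Figure D3:**
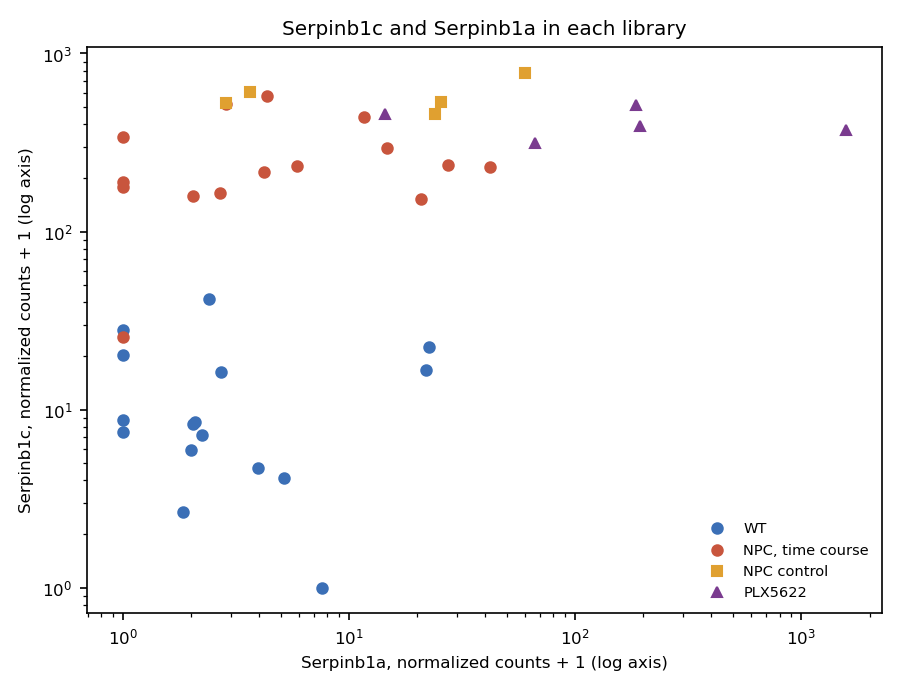
Serpinb1c (y axis) against its paralog Serpinb1a (x axis), normalized counts + 1 on log axes, in each library. The PLX5622 library with 1571 Serpinb1a counts lies within the Serpinb1c range of the other PLX5622 libraries.

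Trim63, the ubiquitin ligase, was the only member whose NPC level was lower at 9 weeks than at 1 week. At 1 week WT held 27.2, 5.52, 20.8 and 27.2 normalized counts and NPC 106, 196, 105 and 150.1, a 7.39-fold (2.57 to 21.2) difference. The 3-week values were 3.10, 26.4, 23.9 and 0.959 in WT and 37.7, 53.4, 42.9 and 111 in NPC, a 6.59-fold (2.29 to 18.9, adjusted p = 0.00907) difference. That call was lost when the fit was limited to the 8 libraries compared (adjusted p = 0.104), and without WT replicate D the log2 difference was 2.01 in place of 2.72. The 6-week libraries held 3.25, 1.32, 0 and 1.08 in WT and 3.50, 43.7, 9.59 and 26.4 in NPC, a 7.30-fold (2.54 to 21.0, adjusted p = 0.0079) difference. The 6-week call was lost without NPC replicates B and C together (adjusted p = 0.127), and the log2 difference was 3.46 without replicate A in place of 2.87. At 9 weeks WT held 2.04, 1.05, 0 and 1.67 and NPC 44.5, 41.4 and 31.7, a 19.7-fold (6.30 to 61.6, adjusted p = 0.000243) difference. Only 5 reads in all were recovered from the 4 WT libraries at 6 weeks and again at 9 weeks, so the fitted size rests on the pseudocount: with 5 in place of 1 the log2 difference was 1.73 in place of 2.87 at 6 weeks and 2.84 in place of 4.30 at 9 weeks. In the other direction, it was 3.84 with edgeR and 3.99 with DESeq2 at 6 weeks, and 5.03 with DESeq2 at 9 weeks.

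Lrguk had a modest NPC level at 1 week and a several times higher one from 3 weeks on. At 1 week WT held 33.4, 4.42, 19.8 and 45.4 normalized counts and NPC 110.3, 139, 96.1 and 95.2, a 5.34-fold (2.82 to 10.1) difference. At 3 weeks WT held 40.3, 25.6, 35.4 and 28.8 and NPC 548, 564, 469 and 445, a 15.3-fold (8.07 to 29.0, adjusted p = 3.06e-07) difference. No 3-week NPC library was below 445, and no 1-week NPC library was above 139. At 6 weeks WT held 39.0, 58.3, 70.4 and 122 and NPC 792, 1076, 688 and 672, an 11.8-fold (6.20 to 22.3, adjusted p = 1.31e-06) difference. In the 9-week libraries WT held 83.8, 47.1, 132 and 32.6 and NPC 774, 1031 and 665, a 12.4-fold (6.21 to 24.8, adjusted p = 2.34e-06) difference.

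Tmem154, the membrane protein of poorly known function, was higher in NPC at each age. At 1 week WT held 116, 169, 246 and 258 normalized counts and NPC 631, 765, 556 and 681, a 3.46-fold (2.47 to 4.85) difference. The 3-week values were 135, 116, 153 and 169 in WT and 838, 972, 1400.1 and 931 in NPC, a 7.11-fold (5.08 to 9.96, adjusted p = 1.62e-09) difference. The lowest NPC library at 3 weeks, A, was above every 1-week NPC library. The 6-week libraries held 156, 204, 198 and 210.2 in WT and 1162, 1691, 1569.5 and 1124 in NPC, a 7.12-fold (5.09 to 9.98, adjusted p = 9.1e-10) difference. At 9 weeks WT held 269, 253, 273 and 129.6 and NPC 1744, 1906 and 1495, a 7.67-fold (5.33 to 11.0, adjusted p = 1.39e-09) difference, with WT replicate D the lowest of its group.

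Whether the levels went on changing was tested between 3 and 9 weeks, ages other than the 1 week for which the genes were chosen. In NPC microglia Chst2 was the 1 member called, 4.07-fold (2.49 to 6.67, adjusted p = 0.000608) higher at 9 weeks, where 4.41% of all genes were called in either direction. Serpinb1c was 4.65-fold (1.54 to 14.0, adjusted p = 0.0997) at 9 weeks relative to 3, with no overlap of the groups, and Tmem154 1.68-fold (1.17 to 2.42, adjusted p = 0.091); neither passed, but Tmem154 did without NPC 3-week replicate C (adjusted p = 0.0446), Tmem154 and Serpinb1c did with DESeq2 (0.0382 and 0.0331), Tmem154 did when rescaled to the same total (0.0393) and Serpinb1c did with a pseudocount of 5 (0.024). Without NPC 3-week replicate C, its lowest library, the Serpinb1c change was 1.52 on the log2 scale in place of 2.22 (adjusted p = 0.346). The other 5 members had adjusted p-values of 0.407 to 0.897. In WT microglia 0 of the 8 were called by limma (0.477% of all genes in either direction), and DESeq2 called 1, Trim63 (adjusted p = 0.0207). By limma 4 of the 8 had an unadjusted p under 0.05, as had 1026 of the 14046 genes tested. The change in the genotype difference from 3 to 9 weeks was called for 0 of the 8 by limma (0.456% of all genes). Unadjusted p-values were under 0.05 for 1586 of the 14046 genes tested and for 2 of the 8. The 2 members were Chst2, at 1.62 ± 0.47 on the log2 scale (SE, adjusted p = 0.129), and Serpinb1c, at 2.44 ± 1.06 (adjusted p = 0.375), or 1.74 without NPC 3-week replicate C (adjusted p = 0.671). By DESeq2 1 was called, Chst2 (adjusted p = 0.0372).

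Another 115 genes were called higher in NPC at 1 week. Of these, 93 were called higher again at 3 weeks, 92 at 6 weeks and 95 at 9 weeks, 84 of them at all 3 ages and 12 at none, and 1 was called lower at 6 weeks. Their median log2 difference was 0.67 at 1 week, where they were chosen by the same comparison, and 0.93, 0.85 and 0.95 at 3, 6 and 9 weeks. The 8 members, picked for a rise at 1 week, were also among the 1-week calls. No test was made between them and the other 115.

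In the PLX5622 arm S1pr1 was the 1 member called, and it was lower under treatment. The control libraries held 7191, 7382, 6548, 6876 and 7135 normalized counts and the PLX5622 libraries 3846, 3144, 4200.1, 4797 and 5692, a 0.605-fold (0.492 to 0.745, adjusted p = 0.0293) level with no overlap, where 0.311% of the 12877 genes tested were called lower. The call was lost, with adjusted p-values of 0.0521 to 0.0929, when PLX5622 replicate 1, 2, 3 or 4 or control replicate 2, 3, 4 or 5 was left out. Chst2 held 6752, 4114, 4625, 6191 and 6445 in the controls and 3113, 856, 3362, 1502 and 4048 under PLX5622, a 0.403-fold (0.230 to 0.705, adjusted p = 0.123) level, also without overlap but not called; without PLX5622 replicate 5 it passed (adjusted p = 0.044). Neither gene fell to its WT range.

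The other 6 members did not pass. Tmem154 held 3619, 1954, 1597, 1879 and 1815 normalized counts in the controls and 3453, 469, 1394, 916 and 816 under PLX5622 (log2 difference -0.90 ± 0.44, SE, adjusted p = 0.366), replicate 1 being the highest of each group. Trim63 held 303, 46.9, 46.1, 25.4 and 36.3 in the controls and 60.7, 0.848, 50.1, 11.2 and 1.91 under PLX5622 (log2 difference -2.34 ± 1.02, adjusted p = 0.304). Its groups overlapped, and its log2 difference was -2.94 without PLX5622 replicate 1, -1.67 without PLX5622 replicate 2 and -1.74 without control replicate 1. Serpinb1c held 603, 778, 456, 532 and 529 in the controls and 511, 392, 371, 314 and 454 under PLX5622 (log2 difference -0.50 ± 0.18, adjusted p = 0.215). Lrguk held 659, 909.7, 664, 796 and 686 in the controls and 912, 461, 402, 450.0 and 1023 under PLX5622 (-0.30 ± 0.26, adjusted p = 0.638). Il12rb2 and B3gnt8 were nearest to no difference. Il12rb2 held 506, 421, 393, 399.6 and 410.4 in the controls and 438, 231, 442, 362 and 403 under PLX5622, a 0.862-fold (0.648 to 1.15, adjusted p = 0.65) level. B3gnt8 held 607, 881, 655, 514 and 504 in the controls and 731, 444, 712, 674 and 600.0 under PLX5622, a 1.01-fold (0.760 to 1.33, adjusted p = 0.991) level.

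Markers of other cells moved with this treatment. The 14 of 15 listed monocyte and neutrophil markers in the table summed to 1491, 9415, 10169, 13032 and 101244 normalized counts in PLX5622 replicates 5, 4, 2, 1 and 3, against 689 to 5499 in the controls, and 10 border macrophage markers summed to 26402 to 48194 against 19014 to 29519. By the median of the group, summed markers were also higher under PLX5622 for neurons (425 against 186), oligodendrocytes (12579 against 8085) and lymphocytes (63.5 against 35.5). Medians were lower for astrocytes (7687 against 10278), endothelial cells and pericytes (1651 against 1878) and erythrocytes (8.48 against 51.7). The median of the microglial markers was lower too (1006710 against 1284500). The part of these markers in the PLX5622 results was not tested.

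Set against the untreated WT libraries of 9 weeks, which the 9-week comparison above shares, all 8 genes were called higher in the NPC controls (11.6% of the 14312 genes tested were called higher) and all 8 in the PLX5622 group (16.6%). S1pr1 was 9.34-fold (7.08 to 12.3, adjusted p = 3.28e-15) higher in the controls and 5.65-fold (4.28 to 7.46, adjusted p = 1.14e-12) higher under PLX5622. Chst2 was 33.3-fold (20.5 to 54.0, adjusted p = 3.65e-14) and 13.4-fold (8.28 to 21.8, adjusted p = 4.63e-11) higher. Serpinb1c was 64.9-fold (27.9 to 151, adjusted p = 5.57e-10) and 45.9-fold (19.8 to 107, adjusted p = 2.55e-09) higher. Trim63 under PLX5622, at 5.72-fold (1.70 to 19.2, adjusted p = 0.0228), was the 1 case in which libraries overlapped with WT. The other 4 members ran from 5.14-fold (Il12rb2) to 11.3-fold (Lrguk) in the controls and from 4.44-fold to 9.20-fold, for the same 2 genes, under PLX5622. Between the NPC controls and the untreated NPC mice of 9 weeks, limma called 0 of the 8 members and 0% of the 14312 genes tested, with 0 members and 598 genes at an unadjusted p under 0.05; no other tool was run on this comparison. The members' fitted folds ran from 0.911 (Lrguk) to 1.47 (Trim63, 95% interval 0.392 to 5.48), and Il12rb2 was the 1 member whose groups did not overlap, at 1.24-fold (0.776 to 1.99).

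**Figure D4:**
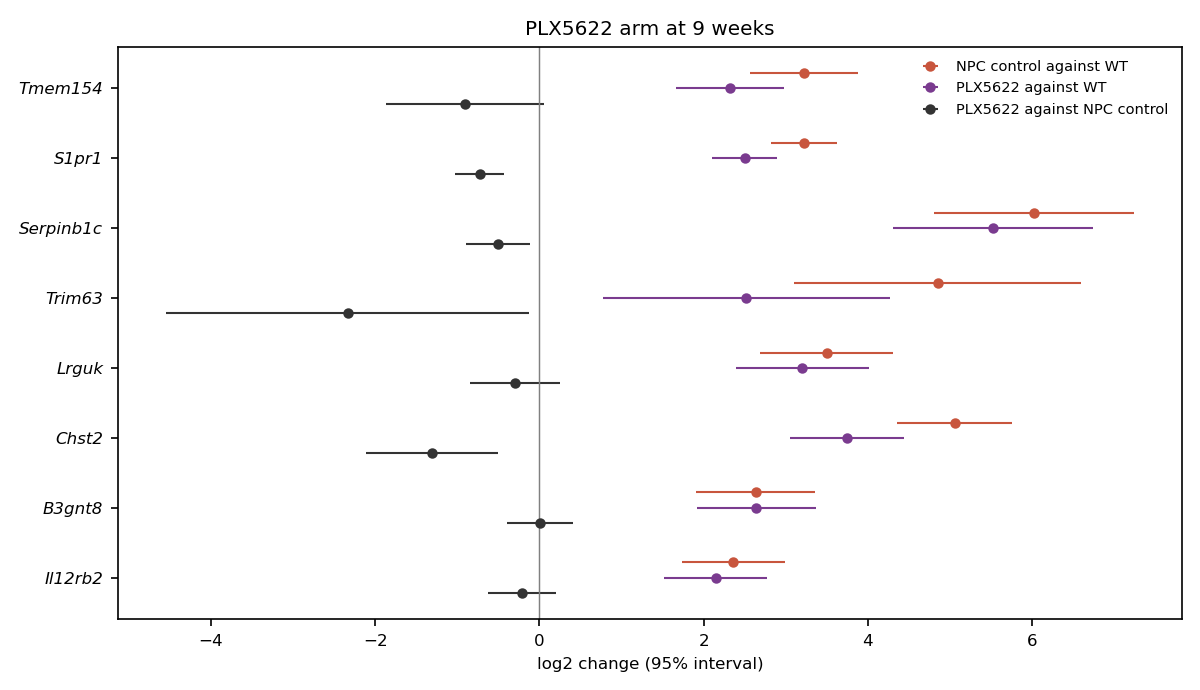
Log2 change (x axis, with 95% intervals) of each gene (y axis) in NPC controls against WT, PLX5622 against WT and PLX5622 against NPC controls, all at 9 weeks. Both comparisons with WT lie above 0 for all 8 genes, and for S1pr1 PLX5622 lies below its controls.

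Other genes of the members' families moved in both directions at the later ages, where 12.6%, 6.5% and 7.77% of all genes were called lower at 3, 6 and 9 weeks. Among 16 other S1P genes, 4, 2 and 3 were higher at 3, 6 and 9 weeks and 1 was lower at each (median log2 0.21 at 9 weeks). The S1P exporter Spns2 at 9 weeks averaged 609.7 ± 72.5 in NPC and 1637 ± 57.5 in WT (SD, n = 3 and 4), a 0.371-fold level (adjusted p = 1.48e-05). Sgpl1, the S1P lyase, averaged 31366 ± 4609.9 in NPC and 18116 ± 1832 in WT (SD, n = 3 and 4), a 1.72-fold level (adjusted p = 0.00096). In these libraries the receptor and the lyase were higher and an exporter lower. Among 11 other genes of the IL-12 family, 3, 3 and 2 were higher and 0, 0 and 1 lower (median 0.10 at 9 weeks). Il27ra, the interleukin-27 receptor, averaged 20.7 ± 14.0 in NPC and 61.5 ± 8.61 in WT (SD, n = 3 and 4), a 0.276-fold level (adjusted p = 0.00495). Il12b, the shared cytokine subunit p40, averaged 66.8 ± 27.6 in NPC and 12.0 ± 14.2 in WT (SD, n = 3 and 4), a 7.98-fold level (adjusted p = 0.0364).

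More relatives of Chst2 were called lower than higher. Of 18 other sulfotransferase and sulfate supply genes, 1, 2 and 3 were higher and 5 at each age were lower at 3, 6 and 9 weeks (median log2 -0.36 at 9 weeks). Gal3st4, a galactose sulfotransferase, averaged 4084 ± 1294 in NPC and 12772 ± 383 in WT (SD, n = 3 and 4), a 0.310-fold level (adjusted p = 1.01e-08). Chst7, which like Chst2 sulfates N-acetylglucosamine, averaged 1071 ± 170.4 in NPC and 3262 ± 409 in WT (SD, n = 3 and 4), a 0.327-fold level (adjusted p = 5.63e-08). Of 16 other lactosamine chain transferases 1 at each age was higher, and 4, 4 and 5 were lower (median -0.15 at 9 weeks). The galactosyltransferase B4galt3 averaged 1941 ± 141 in NPC and 3240.0 ± 283 in WT (SD, n = 3 and 4), a 0.600-fold level (adjusted p = 3.98e-05). B4galt4, a related enzyme, averaged 1364 ± 159 in NPC and 2363 ± 68.2 in WT (SD, n = 3 and 4), a 0.575-fold level (adjusted p = 0.000414).

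Of 6 other clade B serpins 4, 2 and 2 were higher at 3, 6 and 9 weeks and 0 lower (median log2 1.42 at 9 weeks). Serpinb6a averaged 781 ± 47.3 in NPC and 260.5 ± 52.1 in WT (SD, n = 3 and 4), a 3.03-fold level (adjusted p = 5.47e-07). Serpinb6b averaged 144 ± 23.4 in NPC and 11.3 ± 6.36 in WT (SD, n = 3 and 4), a 13.5-fold level (adjusted p = 0.000199). Of 8 relatives of Trim63 and muscle ubiquitin ligase genes, 1, 1 and 2 were higher and 1, 0 and 0 lower (median -0.15). Klf15, a transcription factor of muscle metabolism, averaged 240.4 ± 79.5 in NPC and 39.9 ± 16.5 in WT (SD, n = 3 and 4), a 6.07-fold level (adjusted p = 6.8e-05). Nedd4, a ubiquitin ligase, averaged 261 ± 68.6 in NPC and 32.2 ± 12.4 in WT (SD, n = 3 and 4), an 8.08-fold level (adjusted p = 0.00279). Of 14 other genes with a guanylate kinase domain, 2, 1 and 1 were higher and 2, 1 and 0 lower (median 0.24). Mpp1, a membrane scaffold protein, averaged 2039 ± 212 in NPC and 956 ± 132 in WT (SD, n = 3 and 4), a 2.14-fold level (adjusted p = 4.16e-05). Magi2, a synaptic scaffold, averaged 8.72 ± 5.22 in NPC and 0.517 ± 0.597 in WT (SD, n = 3 and 4), a 6.18-fold level (adjusted p = 0.134), and was not called.

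Across all 41 libraries Pearson's r of log2(normalized count + 1) between members ran from 0.81 to 0.95 without Trim63. With Trim63 it ran from 0.358 to 0.633. The libraries share genotype and age as sources of variation. Every member was chosen as higher in NPC than in WT at 1 week, and the libraries of that age are among the 41. High r between members is thus partly built in by the choice and cannot show that they are linked. Correlation within a genotype was not tested. Among 10003 genes averaging 100 or more normalized counts, those most like S1pr1 were Cndp2 (0.967), Atp6v1a (0.958) and Anxa4 (0.952). Those most like Il12rb2 were Ly9 (0.930), Mpeg1 (0.927) and Arhgap24 (0.921). For Chst2 they were Lox (0.954), Osgin1 (0.949) and Gm8909 (0.946), and for B3gnt8 Arl11 (0.950), Cndp2 (0.936) and Anxa4 (0.935). Several genes recurred: Cndp2, a dipeptidase, and Anxa4, an annexin, stood with both S1pr1 and B3gnt8. For Serpinb1c they were Ly9 (0.934), Ralgds (0.924) and Optn (0.923). For Lrguk they were Mpeg1 (0.932), Gm8909 (0.929) and H2-Q10 (0.927). For Tmem154 they were Got1 (0.948), Osgin1 (0.946) and Atp6v1a (0.944), and Trim63 had weaker neighbours, Vegfb (0.800), 1700003F12Rik (0.800) and Agpat3 (0.773).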

How the data were processed

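Cerebellar microglia were measured by RNA sequencing of polyA RNA in 41 libraries of 10 groups. The deposited signal values are gene counts divided by size factors. The submitters' processing notes name FastQC 0.11.4, STAR 2.5.1b, DESeq2 and build mm9; the counting tool and annotation are not given in the sources used here. Whole reads were recovered from the steps of the low values (100% of values whole within 1e-06), 23159093 to 40509603 per library.

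Groups came from the labels. limma 3.58.1 (R 4.3.3; trend and robust, two-sided) was fitted to log2(normalized count + 1) of genes reaching 10 normalized counts in 3 or more libraries of a fit, with Benjamini-Hochberg adjustment over all genes tested and a threshold of 0.05. The time course used 31 libraries, PLX5622 against control 10, and comparisons across the arms 41. All 8 members passed the filter, and each also passed on WT libraries alone. The procedure was also run on simulated reads, with an outcome that is not given here. The changed genes of that simulation averaged at least 50 normalized counts, above the WT levels of Trim63 and Serpinb1c. Named genes were the 8 members, cell and label checks, close paralogs of a member, the 2 other genes with the smallest adjusted p at 9 weeks in each family list, and the 3 most correlated genes of each member. The members and lists were chosen with earlier results of these data known. Alternatives were a pseudocount of 5, no filter, a mean of at least 50, quantile and total scaling, the count models of edgeR 4.0.16 and DESeq2 1.42.0 fitted to the recovered reads, a fit limited to the groups compared, a replicate block and leaving out each library. The series' design text counts mice per group, but no label ties a library to 1 mouse; p-values measure the spread between these samples, which may be technical. Fold changes are on the log2(normalized count + 1) scale, where those of low genes depend on the pseudocount.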

Additional observations from a re-analysis of the deposited data

Results flagged for a closer look

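Of 72 groups of 4 or 5 libraries of a member, 7 had a library farther from the rest than Dixon's 95% critical value allows; chance flags about 1 in 20 groups. Control replicate 1 was the highest of the NPC controls for 3 genes: Tmem154 held 3619 normalized counts against 1597 to 1954 in the others, Trim63 303 normalized counts against 25.4 to 46.9 in the others, and Il12rb2 506 normalized counts against 393 to 421 in the others. Serpinb1c in NPC 3-week replicate C held 24.7 normalized counts against 158 to 215 in the others, and in NPC 6-week replicate B 339 normalized counts against 230.0 to 236 in the others. In WT, Tmem154 in 9-week replicate D held 129.6 normalized counts against 253 to 273 in the others, and Chst2 in 6-week replicate D 259.8 normalized counts against 106 to 115 in the others.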

How the results depend on the processing

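Among the alternatives run, the number of members called higher in NPC stayed at 6 to 8 of 8 at 3 weeks, 7 to 8 at 6 and at 9 weeks, and leaving out any 1 library kept 8 at each age. Trim63 was no longer tested with a mean filter of 50 and, at 6 weeks, in the fit limited to the groups compared, with or without a block. Members called between PLX5622 and control numbered 1 in the main analysis, 0 to 2 with 1 library left out, 2 with a replicate block and 0 without both PLX5622 replicate 1 and control replicate 1, an alternative chosen after seeing the data, as was dropping NPC replicates B and C at 6 weeks. Between 3 and 9 weeks in NPC, 1 member was called, 2 with a pseudocount of 5 (Serpinb1c added), 2 when rescaled to the same total (Tmem154 added), 3 with DESeq2, 0 in the limited fit with a replicate block and 1 to 2 with 1 left out. DESeq2 called 1 member between 3 and 9 weeks in WT and 1 in the genotype difference, against 0 by limma in both; the cause was not tested.

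Replicate pairing was not settled. Same-name deviations correlated at -0.173 to 0.207 at 3 weeks (highest in 2 of 4 pairs) and -0.311 to 0.0873 at 6 (0 of 4). At 9 weeks r was -0.0534 to 0.116 (2 of 3) and in the PLX5622 arm -0.148 to 0.267 (3 of 5). It was 0.155 to 0.193 at 1 week (4 of 4). The block was added to the limited fit. At 3 weeks the log2 differences of Trim63 (2.72) and Serpinb1c (3.41) did not move. Trim63 was not called in the limited fit (adjusted p = 0.104) or with the block (0.161), Serpinb1c was called only without the block (0.0364 and 0.0632), as was Chst2 between 3 and 9 weeks in NPC (0.0223 and 0.545). Chst2 was called between PLX5622 and control with the block (0.0288). NPC controls and WT share no replicate names to block on.

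Signs reversed only for differences that were not called. On the log2 scale, B3gnt8 between PLX5622 and control was 0.01, and -0.0036 with quantile scaling, -0.020 rescaled, -0.014 with edgeR, -0.0072 with DESeq2, -0.058 without both replicates 1, and -0.066 to 0.135 with 1 left out. Il12rb2 between 3 and 9 weeks in NPC was -0.125 with quantile scaling, -0.033 with edgeR, -0.0094 with DESeq2 and -0.237 to 0.323 with 1 left out. S1pr1 between 3 and 9 weeks was 0.048 rescaled and -0.122 to 0.105 with 1 left out in WT, and -0.063 to 0.366 in NPC; Serpinb1c in WT was -0.678 to 0.346. The genotype difference at 9 minus 3 weeks of Tmem154 was -0.147 with the replicate block and -0.147 to 0.264 with 1 left out, that of Lrguk -0.622 to 0.039 and that of S1pr1 -0.058 to 0.371.

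Genes called over the whole table are given with each library whose removal moved them over 1.5 times. There were 3777 at 3 weeks (769 in the limited fit, 295 with a block added; 2057 to 5200 with 1 left out, 2372 for WT 3A, 2057 for NPC 3C). There were 2143 at 6 weeks (1187 in the limited fit with a replicate block, 872 with NPC replicates B and C dropped; 1524 to 2372 with 1 left out). There were 2665 at 9 weeks (4429 in the limited fit, 4209 with a block added; 1641 to 2292 with 1 left out, 1641 for NPC 9A). There were 122 between PLX5622 and control (79 with no filter, 605 with DESeq2, 416 with a replicate block; 21 to 465 with 1 left out, 47 for PLX5622 2, 62 for PLX5622 3, 38 for PLX5622 4, 465 for PLX5622 5, 35 for control 2, 33 for control 3, 29 for control 4, 21 for control 5). There were 67 between 3 and 9 weeks in WT (195 with DESeq2, 222 in the limited fit, 118 with a block added; 18 to 97 with 1 left out, 32 for WT 3B, 18 for WT 3C, 33 for WT 9A, 22 for WT 9B). There were 620 between 3 and 9 weeks in NPC (1042 with DESeq2, 20 in the limited fit, 0 with a block added; 151 to 1203 with 1 left out, 1203 for NPC 3A, 151 for NPC 9A, 347 for NPC 9C). There were 64 for the genotype difference at 9 minus 3 weeks (100 with quantile scaling, 245 with DESeq2, 17 in the limited fit, 0 with a block added; 24 to 103 with 1 left out, 29 for WT 3B, 38 for WT 3C, 41 for WT 9C, 30 for WT 9D, 103 for NPC 3A, 24 for NPC 9A, 33 for NPC 9C). At this depth low WT counts limit the precision of the Trim63 and Serpinb1c folds.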
